A study of Homo sapiens with 6 samples.

Results

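The transcripts described here are those of FJX1 and of the 6 giant cadherins of the FAT and Dachsous families, FAT1, FAT2, FAT3, FAT4, DCHS1 and DCHS2. These 7 genes were taken by symbol from a table of 28008 genes. The set was chosen by the measured fall of FJX1 in this same contrast, so the FJX1 change is given as a description with no test, and the cadherins were added as the partners of its protein. NCI-H660 (H660), an established line of neuroendocrine prostate cancer (NEPC), was studied by RNA-Seq after transduction with a doxycycline (DOX)-inducible shRNA against MUC1 and puromycin selection. By the study's protocol all 6 libraries came from these hairpin-bearing cells, although the treatment label reads wild-type for each of them, and the groups were taken from the sample titles. The DOX-negative group (n = 3) received 0.1% DMSO as the vehicle, and the DOX-positive group (n = 3) received DOX at 500 ng/ml. For its RNA-Seq of these cells the study states a DOX exposure of 7 days. The model is 1 cell line with 1 hairpin, and cells that received DOX without a MUC1 hairpin were not analysed here, so silencing and any effect of DOX itself cannot be told apart. The replicates were cultured in triplicate per the labels, and p values measure the spread between these cultures.

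FJX1 is the human counterpart of the fruit fly gene four-jointed, whose product is a kinase of the Golgi apparatus that phosphorylates the extracellular cadherin repeats of Fat and Dachsous. Fat and Dachsous are very large cadherins that bind each other on neighboring cells, and the phosphorylation tunes how tightly they bind. In flies this system orients cells within the plane of an epithelium and restrains growth through the Hippo pathway, in which LATS kinases keep the coactivators YAP and TAZ out of the nucleus and away from TEAD factors. Human FJX1 is in turn one of the transcripts used as a readout of YAP/TEAD activity.

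Total counts were between 47620696 and 74061121 per library. The targeted gene was examined first. MUC1 was at 88.2, 90.2 and 79.6 CPM (counts scaled to the library total and its TMM factor) in the DOX-negative libraries and at 36.7, 37.2 and 29.9 CPM in the DOX-positive libraries. It fell by 1.32 on the log2 scale (SE 0.0962, edgeR adjusted p = 0.00017). The 7 neuroendocrine markers of the cell type check were all tested, with summed levels of 862 to 965 CPM without DOX and 768 to 853 CPM with DOX. Of these 7 markers NCAM1 and INSM1 were called lower (log2 fold changes of -0.505 and -0.45), where 1.96% of all tested genes were called lower. The list did not share a direction, with 3 markers above 0, 4 below 0 and a median of -0.0294. Those above 0 were CHGB (0.286, edgeR adjusted p = 0.17), ENO2 (0.13) and SCG3 (0.104), none of them called. NCAM1 lost its call without DOX-negative replicate 2 (-0.44) or replicate 3 (-0.52), and INSM1 lost it without DOX-negative replicate 2 (-0.41) or replicate 3 (-0.44) and also without DOX-positive 2 (-0.52) or 3 (-0.32). The luminal markers KLK3 and KLK2 had at most 1 count in a library.

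FJX1, the kinase, was counted 199, 235 and 178 times in the DOX-negative libraries and 107, 85 and 76 times in the DOX-positive libraries. Scaled for depth, these were 3.11, 3.80 and 3.74 CPM without DOX and 1.42, 1.55 and 1.03 CPM with DOX. The groups did not overlap, and the highest DOX-positive library was 50.4% below the lowest DOX-negative library.

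Mean FJX1 was 3.55 ± 0.379 CPM in DOX-negative cells and 1.33 ± 0.268 CPM in DOX-positive cells (SD, n = 3). This log2 fold change of -1.42 (SE 0.172) is a 2.68-fold lower level with DOX. Over the 9 pairs of a DOX-positive and a DOX-negative library the ratio lay between 0.271 and 0.496. Summed over a group, FJX1 had 612 counts without DOX and 268 with DOX. The change was between -1.53 and -1.26 when any 1 library was left out. These values describe the difference on which FJX1 was chosen and do not test it. Among 14587 tested genes that averaged 50 counts or more, 7 had a lower log2 fold change than FJX1. The genes next to it in that order were LRRC74B (-1.47) and GFRA1 (-1.38), which are named for their place alone.

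In the TPM values that the authors deposited, which divide counts by gene length, FJX1 was at 0.678, 0.875 and 0.666 without DOX and 0.368, 0.267 and 0.216 with DOX. These groups did not overlap either. FJX1 was thus a sparse transcript in both groups, at the 38.5th percentile of the 21241 genes with any TPM. On log2(TPM + 1) its difference shrank to -0.44, because a pseudocount of 1 exceeds its level.

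FJX1 lies on chromosome 11 at 35618460 to 35620865 in GRCh38, the build named in the submitters' processing notes, on the plus strand. It is compact, with 1 or 2 exons in its GENCODE transcripts and a span of 2.41 kb, and no other gene in the RefSeq table (GRCh38.p14) overlaps it. The 250 bases before its start, chr11:35618210-35618459 on the plus strand, are shown from RefSeq because the study follows MYC in these cells and the window holds 1 copy of the letters CACGTG, the E-box that MYC and related factors can bind. Capitals mark that match.
FJX1 promoter: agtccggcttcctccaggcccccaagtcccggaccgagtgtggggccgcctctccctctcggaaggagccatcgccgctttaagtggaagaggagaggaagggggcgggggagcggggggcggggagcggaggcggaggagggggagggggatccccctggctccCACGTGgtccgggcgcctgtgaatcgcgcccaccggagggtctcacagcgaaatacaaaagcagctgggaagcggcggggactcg

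The match began 85 bases before the start site, and 6.49% of 27305 promoters of the same length held CACGTG, which reads the same on both strands. The letters GGAATG, read by TEAD factors, were absent from this window on both strands, as was CTTTGAT, read by TCF/LEF factors. They stood in 11.9% and 2.28% of all promoters. The GC box GGGCGG occurred in it 2 times on either strand and in 42.3% of promoters, and 70.4% of the window was G or C against a median of 58%. A match is a run of letters and not evidence of binding. Promoters were found for 4 of the 7 members, and those of FAT1, FAT2 and DCHS2 held neither CACGTG nor GGAATG.

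The genes on either side of FJX1 were read beside it. TRIM44, a tripartite motif protein gene 41.9 kb downstream, averaged 143 ± 5.59 CPM in DOX-negative and 130 ± 9.26 CPM in DOX-positive cells (SD, n = 3), which gave -0.139 on the log2 scale (SE 0.076, edgeR adjusted p = 0.32). LDLRAD3, which encodes a member of the LDL receptor family 323 kb downstream, changed by 0.07 (SE 0.0897, adjusted p = 0.71). CD44, the hyaluronan receptor gene 386 kb upstream, was nearly silent with a mean of 15 counts, and its difference was -0.67 (SE 0.338, adjusted p = 0.28). None of these 3 was called. The remaining neighbors in the count table, SLC1A2, PAMR1 and MIR3973, had at most 8 counts in a library and were not tested.

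**Figure D1:**
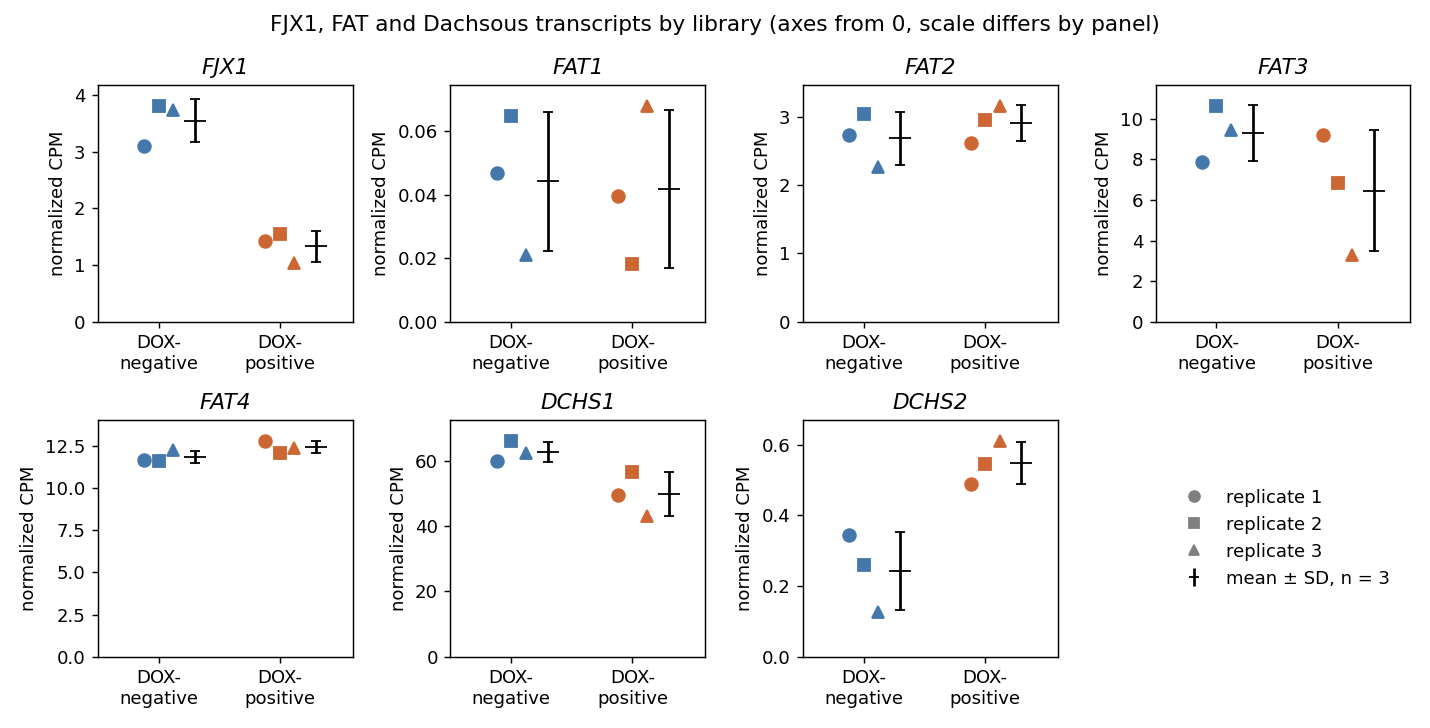
Normalized CPM of FJX1, FAT1, FAT2, FAT3, FAT4, DCHS1 and DCHS2 in each of the 6 libraries (points, shaped by replicate number), with the group mean ± SD (n = 3) beside them; each panel has its own axis from 0. FJX1 sits at 3.11 to 3.80 CPM without DOX and 1.03 to 1.55 CPM with DOX, whereas FAT2, FAT3 and FAT4 overlap between the groups.

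Of the 6 cadherins, 5 had enough counts to be tested, and 0 of these 5 were called at an edgeR adjusted p under 0.05. Across all 17026 tested genes 4.87% were called. DCHS1 and DCHS2, 2 of the 5, had an unadjusted p under 0.05, as did 21.1% of all tested genes. The same 2 had groups that did not overlap, as did 28.1% of all tested genes, and 1 of them (DCHS1) was lower with DOX, where the share of all tested genes was 13.3%. DESeq2 called 1 of the 5, which was DCHS1, and limma-voom called 0. The cadherins did not share a direction, since 3 had a log2 fold change above 0 and 2 below 0. Their median was 0.0723, against 0.000338 for all tested genes, and its sign varied between fits that kept other cadherins, since it was -0.139 with a stricter filter on counts and -0.0042 with DESeq2.

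DCHS1, a Dachsous cadherin that binds FAT4 across cell contacts in mammals, was the most abundant member. The gene lies on chromosome 11 at 6621330 to 6655809. Its level was 59.8, 65.9 and 62.3 CPM without DOX and 49.5, 56.5 and 43.0 CPM with DOX. Every DOX-positive library was below every DOX-negative library (exact two-sided permutation p = 0.10, the smallest that 3 against 3 can give). Averages of 62.7 ± 3.07 and 49.6 ± 6.75 CPM (SD, n = 3) gave a log2 fold change of -0.34 (SE 0.0977, edgeR adjusted p = 0.069).

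The DCHS1 difference lay near the threshold and its call varied with the fit. DESeq2 gave an adjusted p of 0.020 for -0.34, and without DOX-positive replicate 2, the highest of the DOX-positive libraries, the change was -0.44 with an adjusted p of 0.020. In deposited TPM the groups overlapped, at 3.07, 3.58 and 2.62 without DOX and 3.03, 2.30 and 2.12 with DOX. TPM is set against a total of which 5 structured RNAs (RN7SK, SNORD3A, RN7SL2, RN7SL1 and RPPH1) took 73.5% to 78.2% without DOX and 71.6% to 79.5% with DOX, and their part in the difference between CPM and TPM was not tested.

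DCHS2, the other Dachsous cadherin, was sparsely counted. It lies on chromosome 4 at 154231742 to 154491799, where a long non-coding RNA gene on the other strand overlaps it. It had 22, 16 and 6 counts without DOX and 37, 30 and 45 counts with DOX, which were 0.344, 0.259 and 0.126 CPM against 0.490, 0.546 and 0.610 CPM. The lowest DOX-positive library lay above the highest DOX-negative one, in TPM as well. The group means of 0.243 ± 0.110 and 0.548 ± 0.0605 CPM (SD, n = 3) gave a log2 fold change of 1.12 (SE 0.323, edgeR adjusted p = 0.068).

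DCHS2 therefore differed in the opposite direction from DCHS1, with neither past the threshold. The change of DCHS2 ranged from 0.85 without DOX-negative replicate 3, its lowest library, to 1.46 without DOX-negative replicate 1. Its summed counts were 44 (95% exact Poisson interval 32.0 to 59.1) and 112 (92.2 to 135), intervals that cover counting error only. At its mean of 26.0 counts per library, the direction rests on few reads.

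FAT4, the mammalian cadherin closest to fruit fly Fat and the partner of DCHS1, was the second most abundant cadherin per length (chromosome 4, 125314955 to 125492932). It stood at 11.7, 11.6 and 12.3 CPM without DOX and 12.8, 12.1 and 12.4 CPM with DOX. The means were 11.9 ± 0.428 and 12.5 ± 0.339 CPM (SD, n = 3), and the log2 fold change of 0.072 had an SE of 0.0873 (edgeR adjusted p = 0.69). The libraries overlapped, and leaving out any 1 of them kept the change between 0.052 and 0.096.

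FAT3, a cadherin known for shaping neurons of the retina, had the highest SE among the 5 tested cadherins (chromosome 11, 92224818 to 92896473). Its values were 7.86, 10.6 and 9.45 CPM without DOX and 9.22, 6.84 and 3.31 CPM with DOX. DOX-positive replicate 1 lay within the DOX-negative range, and DOX-positive replicate 3 was the lowest library. The log2 fold change was -0.525 (SE 0.354, edgeR adjusted p = 0.47), and it was -0.204 with DOX-positive replicate 3 omitted and -0.888 with DOX-positive replicate 1 omitted.

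FAT2, a cadherin of migrating epithelia (chromosome 5, 151504092 to 151594819), was at 2.74, 3.04 and 2.27 CPM without DOX and 2.62, 2.95 and 3.15 CPM with DOX. These ranges overlapped, with a log2 fold change of 0.108 (SE 0.148, edgeR adjusted p = 0.73). FAT2 overlaps SLC36A1, a gene on the other strand with a mean of 9999 counts per library, and the strand setting of the counting is not given in the sources used here, so its count is uncertain.

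FAT1, the cadherin most often described in epithelial cancers, was close to absent. It had 3, 4 and 1 counts in the DOX-negative libraries and 3, 1 and 5 counts in the DOX-positive libraries. The sums were 8 counts (95% exact Poisson interval 3.45 to 15.8) and 9 counts (4.12 to 17.1), and FAT1 was removed by the count filter. No fold change is given at this depth. FAT1 (chromosome 4, 186587794 to 186726696) also has 1 pseudogene by symbol, with which reads could be shared.

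Per length, the order of the members in every DOX-negative library was DCHS1, FJX1, FAT4, FAT3, FAT2, DCHS2 and FAT1. In every DOX-positive library FAT4 stood above FJX1, and in DOX-positive replicate 3 FAT2 also stood above FAT3. The mean TPM over the 6 libraries was 2.79 for DCHS1, 0.512 for FJX1, 0.402 for FAT4, 0.222 for FAT3, 0.103 for FAT2, 0.0178 for DCHS2 and 0.00161 for FAT1. Neighbors in that order overlapped in 2 places. FJX1 (0.216 to 0.875 TPM) spanned FAT4 (0.328 to 0.521), and FAT3 (0.0915 to 0.322) overlapped FAT2 (0.0702 to 0.122). FAT3 stayed below FAT4, and DCHS1 stood clear of all other members in all 6 libraries.

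DCHS1 supplied 80.3% to 80.5% of the summed TPM of the 6 cadherins without DOX and 75.5% to 79.5% with DOX. The ratio of DCHS1 to FJX1 in TPM, the substrate family's main transcript against the kinase, was 4.53, 4.09 and 3.93 without DOX and 8.24, 8.61 and 9.83 with DOX. These groups did not overlap, and the ratio contains the FJX1 values on which the genes were chosen. The ratio of MUC1 to FJX1 in TPM was 43.0, 36.0 and 32.3 without DOX and 39.3, 36.5 and 44.0 with DOX, and these groups overlapped. It sets the targeted gene against a gene chosen for its fall, so the overlap is no test of a link between them.

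**Figure D2:**
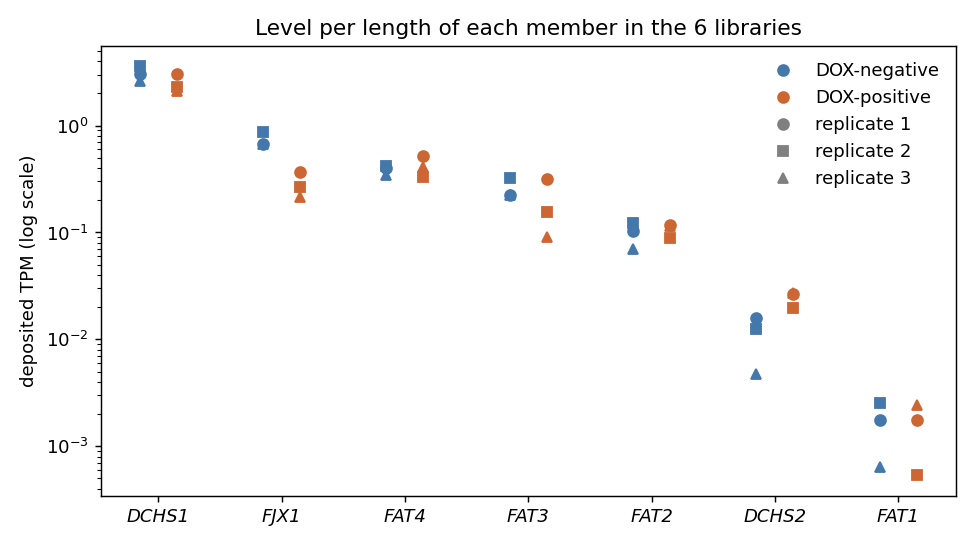
Deposited TPM of each member (log axis) in the 3 DOX-negative and 3 DOX-positive libraries, ordered by the mean over all 6. DCHS1 lies above 2 TPM in every library, FJX1 moves from above FAT4 to below it with DOX, and FAT1 reaches at most 0.00255 TPM.

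The genes whose pattern over the 6 libraries was most like that of FJX1 were then listed by Pearson correlation of log2 CPM among 14586 genes. The first 5 were STUM (r = 0.998), JAM3 (0.997), TMSB4X (0.997), INSR (0.996) and GREB1 (0.995). JAM3 encodes a junctional adhesion molecule, TMSB4X an actin-sequestering peptide, INSR the insulin receptor, and GREB1 an estrogen-responsive protein. All 5 were lower with DOX in every library, with log2 fold changes from -1.01 for GREB1 to -0.27 for INSR, and none reached the FJX1 change. MUC1 had an r of 0.982 and ranked 46th. The 6 libraries fall into 2 groups, so a correlation over them includes the group difference, and none carries a test because the genes were picked by it. Among the cadherins r was 0.932 for DCHS1, 0.742 for FAT3, -0.452 for FAT2, -0.652 for FAT4 and -0.873 for DCHS2.

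FJX1 belongs to a small group of kinases that act inside the secretory pathway, and these were compared next. Of 12 such genes listed, 10 were matched in the count table and 7 were tested, of which 2 were called lower and 0 higher. Across all tested genes 1.96% were called lower. FAM20B, which phosphorylates xylose in the linker of proteoglycans, fell from 167 ± 6.21 to 124 ± 10.7 CPM (SD, n = 3; log2 fold change -0.43, SE 0.0795, edgeR adjusted p = 0.014). FAM69B (DIPK1B) fell from 37.1 ± 1.33 to 28.1 ± 2.90 CPM (-0.40, SE 0.0912, adjusted p = 0.030). The FAM20B call was lost without DOX-negative replicate 2 (-0.455) or replicate 3 (-0.41). The FAM69B call was kept without DOX-positive replicate 2 (-0.47) and lost when any other library was left out, with values from -0.43 to -0.33.

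The remaining kinases did not pass. POMK, which phosphorylates the mannose of dystroglycan, changed by 0.088 (adjusted p = 0.59), and PKDCC, a secreted tyrosine kinase, by -0.078 (adjusted p = 0.81). FAM198A (GASK1A) was higher in each DOX-positive library but sparse, at 0.763 ± 0.157 against 1.15 ± 0.131 CPM (0.57, SE 0.210, adjusted p = 0.14). FAM20C, the main kinase of secreted proteins, had at most 6 counts in a library and was not tested. The list median was -0.0809, and it was 0.00503 without DOX-negative replicate 2.

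Core planar polarity genes, which encode the other system that orients cells in an epithelium, were examined as well. All 15 were tested and 0 were called, with 2 at an unadjusted p under 0.05 in edgeR, 1 called by DESeq2 and 0 by limma-voom. Across all tested genes edgeR called 4.87%, and 21.1% had an unadjusted p under 0.05, so 0 calls among so few genes is near that share. CELSR3, an atypical cadherin with a receptor domain, was at 220 ± 6.08 and 241 ± 17.7 CPM (0.128, SE 0.0746, adjusted p = 0.36). DVL3, a cytoplasmic transducer of Frizzled receptors, was at 148 ± 13.1 and 175 ± 8.57 CPM (0.24, SE 0.0812, adjusted p = 0.11). ANKRD6 (Diversin), named after its value was seen, was the gene that DESeq2 called, at -0.315 with an adjusted p of 0.012, against -0.311 and 0.053 in edgeR, and edgeR also called it with RLE factors or when only genes without counts were removed (adjusted p = 0.046). The list spanned -0.31 to 0.24 with a median of 0.0465.

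Proteins that bind the FAT or Dachsous tails, or act just below them, were examined in the same way. Of 17 such genes 16 were tested and 0 were called, with 1 at an unadjusted p under 0.05 in edgeR and 0 called by DESeq2 or limma-voom. The edgeR shares of all tested genes were 4.87% called and 21.1% at an unadjusted p under 0.05, so 0 calls is again near the share. RERE, an atrophin-family corepressor, changed by -0.085 (SE 0.0767, adjusted p = 0.58) at 562 ± 32.6 CPM without DOX. SCRIB, a scaffold of the lateral membrane, changed by 0.057 (SE 0.0822, adjusted p = 0.75) at 365 ± 16.2 CPM without DOX. LIX1 had 0 counts in every library. The range was -0.25 to 0.22 and the median 0.031, which was -0.0194 without DOX-positive replicate 3.

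**Figure D3:**
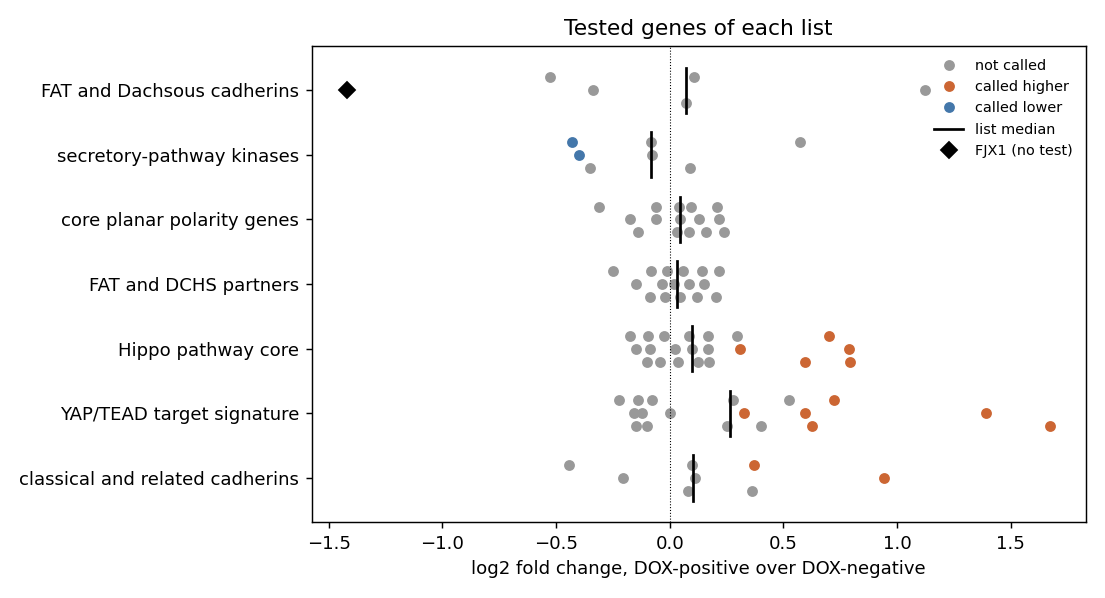
Log2 fold change of each tested gene in 7 lists (points, with called genes in color and a bar at the list median, FJX1 excluded). Calls lie to the left among secretory-pathway kinases, to the right among Hippo, YAP/TEAD and classical cadherin genes, and in neither direction among FAT and Dachsous cadherins, planar polarity genes and FAT partners. Across all tested genes 4.87% were called.

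In flies Fat and Dachsous signal to the Hippo pathway, so its human core genes were examined. Of the 21 tested, 5 were called higher and 0 lower, where 2.91% of all tested genes were called higher. A link of these transcripts to FJX1 or to the cadherins was not tested. WWTR1, which encodes the coactivator TAZ, rose from 10.5 ± 0.521 to 18.1 ± 2.58 CPM (SD, n = 3; log2 fold change 0.79, SE 0.112, edgeR adjusted p = 0.0048). TEAD4, a DNA-binding partner of YAP and TAZ, rose by 0.79 (SE 0.145, adjusted p = 0.013), and WWC2, a scaffold of LATS kinases, by 0.70 (SE 0.119, adjusted p = 0.010). The LATS2 kinase gene rose by 0.60 (SE 0.142, adjusted p = 0.035), and AMOTL1, a binding partner of YAP named as the last of the 5 after its value was seen, by 0.31 (adjusted p = 0.031). YAP1 itself was at 20.3 ± 1.92 and 24.9 ± 3.78 CPM, with an adjusted p of 0.16.

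The Hippo calls varied with the library left out. Without DOX-negative replicate 3, 0 of the 5 remained called, with WWTR1 at 0.77 and TEAD4 at 0.69, and without DOX-negative replicate 2 only WWTR1 did. WWC2 was at 0.695 without DOX-negative replicate 3 and at 0.671 without DOX-negative replicate 2. The number that remained was 3 without DOX-negative replicate 1 or DOX-positive replicate 3, 4 when DOX-positive replicate 2 was omitted and 5 when DOX-positive replicate 1 was. AMOTL1 ranged from 0.27 to 0.34 and LATS2 from 0.48 to 0.71 over the 6 fits. LATS2 also lost its call with limma-voom on all libraries (0.58, adjusted p = 0.053).

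FJX1 was last compared with the other transcripts of the published YAP/TEAD signature to which it belongs. Of the 21 others, 18 were tested, 6 were called higher and 0 were called lower, where 2.91% and 1.96% of all tested genes were. Their median log2 fold change was 0.265, with 11 above and 7 below 0, and they spanned -0.22 to 1.68. The median was 0.103 without DOX-negative replicate 2, 0.178 with DOX-positive replicate 1 omitted, and between 0.243 and 0.331 without any other library. It was 0.0208 and 0.023 in the filtered TPM fits, which dropped genes averaging under 1 TPM. Among those dropped were the called genes ANKRD1, CCDC80, F3 and LATS2, so these 2 medians are of fewer genes. FJX1, at -1.42, lay below all 18. It was chosen for its strong fall, so this place follows from the choice and is no result about the signature.

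The muscle ankyrin repeat gene ANKRD1 was at 0.845, 0.550 and 0.315 CPM without DOX and 1.80, 1.56 and 2.22 CPM with DOX. Its groups did not overlap, and it rose by 1.68 on the log2 scale (SE 0.275, edgeR adjusted p = 0.0091). CCDC80, a secreted matrix protein gene, rose by 1.39 (SE 0.243, adjusted p = 0.011), F3, which encodes tissue factor, by 0.725 (SE 0.149, adjusted p = 0.020), and CYR61 (CCN1), a matricellular protein gene, by 0.625 (SE 0.109, adjusted p = 0.011). LATS2, which is in both lists, and GADD45A (0.325, adjusted p = 0.036), named after its value was seen, were the other called genes. ANKRD1 and CCDC80 were themselves sparse, with means of 81.5 and 66.3 counts.

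AXL, IGFBP3 and FOXF2 had at most 5 counts in a library and were not tested. Without DOX-negative replicate 3 only CCDC80 of the 6 remained called, and ANKRD1 was then at 1.41 with an adjusted p of 0.057. Without DOX-negative replicate 2 only ANKRD1 remained, with CCDC80 at 1.25, F3 at 0.69 and CYR61 at 0.59. The number was 4 without DOX-negative replicate 1 or DOX-positive replicate 3, where GADD45A was at 0.36 and 0.295. With all libraries, limma-voom did not call LATS2 (adjusted p = 0.053), and edgeR without scaling factors did not call GADD45A (adjusted p = 0.055).

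**Figure D4:**
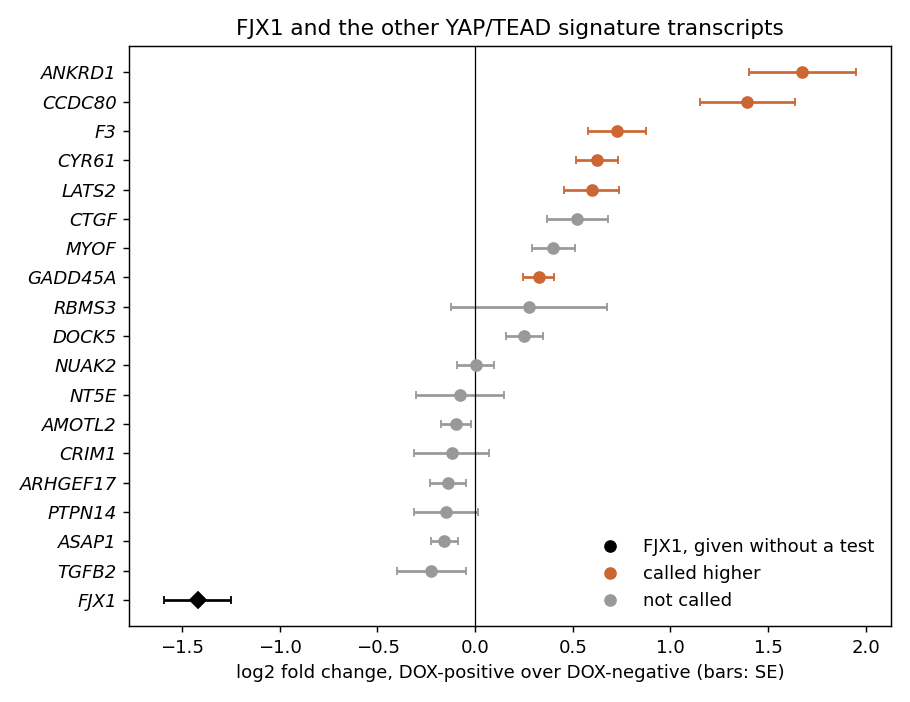
Log2 fold change ± SE of FJX1 and the 18 other tested genes of the YAP/TEAD signature, from the edgeR fit on 3 against 3 libraries. FJX1 (-1.42, no test) is the lowest, a place that follows from its choice for a strong fall. The 6 called genes are all to the right of 0, and 7 of the other genes lie left of 0 without a call.

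Classical and related cadherins were set beside the FAT and Dachsous genes as other cell adhesion receptors. Of 19 listed, 8 were tested, and the other 11 had at most 1 count in a library. CDH5 rose by 0.94 (SE 0.172, edgeR adjusted p = 0.013) from 2.29 ± 0.468 to 4.44 ± 0.721 CPM and CDH24 by 0.37 (SE 0.0908, adjusted p = 0.038), and 0 were called lower, against 2.91% and 1.96% of all tested genes. CDH5 lost its call without DOX-negative replicate 2 (0.85) or replicate 3 (0.87), and CDH24 without DOX-negative replicate 1 (0.38), 2 (0.42) or 3 (0.32) or DOX-positive replicate 3 (0.39). CDH1, the epithelial E-cadherin, was at 228 ± 6.27 and 246 ± 4.28 CPM, with an adjusted p of 0.37.

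Because FAT4, DCHS1 and several YAP/TEAD transcripts are also made by fibroblasts, the fibroblast markers were read beside them. Of 8 markers, COL3A1 and THY1 had 0 counts in every library and DCN at most 2. The summed level of the list was 25.2 to 30.7 CPM without DOX and 23.5 to 27.9 CPM with DOX. Of its 3 tested genes COL1A1 (0.60, adjusted p = 0.019) and LUM (1.06, adjusted p = 0.030) were called higher, against 2.91% of all tested genes, and COL1A2 was at -0.71 (adjusted p = 0.20). Neither remained called without DOX-negative replicate 2 (0.59 and 0.93) or replicate 3 (0.52 and 1.08), and LUM also lost its call without DOX-positive replicate 3 (0.72, adjusted p = 0.077) and with limma-voom (adjusted p = 0.055). The part of these markers in the FAT4, DCHS1 and YAP/TEAD values was not tested. All libraries came from cultures of an established line, and the sources used here name no added fibroblasts. In bulk RNA of such cultures, fewer cells with a transcript and less of it per cell cannot be told apart.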

How the data were processed

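Stranded mRNA libraries were prepared from column-purified total RNA per the labels. The submitters' processing notes name STAR, DESeq2 and the builds GRCh38 and hg38. The annotation and the strand setting of the counting are not given in the sources used here. Raw counts were deposited for 28008 gene symbols, together with TPM, an abundance per transcript length and library, for 25673 of them. Groups and replicate numbers came from the sample titles, and 0 columns lacked a sample.

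Counts were tested with edgeR 4.0.16 in R 4.3.3 (filterByExpr, TMM factors of 0.967 to 1.03, quasi-likelihood fit with robust estimation, no covariate). Benjamini-Hochberg adjustment covered 17026 genes, with calls below 0.05. The log2 fold change sets DOX-positive over DOX-negative cells, and its SE came from the F statistic. TPM were used for levels between genes.

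The members and lists, written from general knowledge, were chosen with earlier results of these data known. The genes named were the members, MUC1, up to 4 called genes per list with the largest change, or else the 2 most abundant, 3 neighbors on each side of FJX1 and the 5 genes most like it in pattern. Any other gene named was added after its values were seen. Alternatives were other scaling factors (RLE, upper-quartile, none), DESeq2 1.42.0, a looser and a stricter filter on counts, limma 3.58.1 (voom on counts, trend on TPM with pseudocounts of 1 and 0.1), non-robust estimation, the replicate number as a block, and leaving out each library. The code was tested on simulated counts. No pair of libraries of 1 group held the same library, with a chi-square of 15.6 to 95.1 per degree of freedom.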

Additional observations from a re-analysis of the deposited data

How the results depend on the processing

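The FJX1 change stayed between -1.53 and -1.26 in every fit of counts and was -0.44 on unfiltered log2(TPM + 1), where the pseudocount exceeds its level. It was not in the fits of TPM with a mean of at least 1. The number of genes called, 829, became 1355 with DESeq2, 30 (43.3% higher, against 59.8% with counts) and 35 (45.7% higher) when TPM averaged 1 or more and the pseudocount was 1 or 0.1, and 0 on unfiltered log2(TPM + 1), with 1248 at an unadjusted p under 0.05. In those 3 TPM fits 0 of the pathway genes were called, against 14 of 82 tested with counts, where 4.87% of all tested genes were called. The 2 filtered TPM fits tested 11707 genes and the unfiltered one 21241, so few genes of any kind were called in them. Of the cadherins, 0 were called with counts, 2 when only genes without counts were removed, 1 with DESeq2 and 1 with the replicate block. The 2 were DCHS1 (adjusted p = 0.038) and DCHS2 (0.048), and the single call was DCHS1. Leaving out 1 library gave 58 to 1035 genes called, 1 to 15 pathway genes and 0 to 1 cadherins, the lowest counts coming without DOX-negative replicate 3, and such fits have fewer samples. The cause of the other changes was not tested. Of 36 single genes followed, 0 changed sign, but list medians did. The cadherin median of 0.0723 was -0.139 with the stricter filter and -0.0042 with DESeq2, which tested other sets of these genes. In the filtered TPM fits DCHS1 was the only cadherin tested, at -0.234 and -0.31, against -0.337 with counts. COL1A2 was likewise the only fibroblast marker tested there, at -0.405 and -0.676, against -0.71 with counts. These values are therefore of single genes, and the fibroblast median of 0.597 with counts is of other genes too. Planar polarity calls went from 0 to 1 (ANKRD6) with RLE factors, the looser filter or DESeq2.

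Pairing by replicate number was not borne out. Deviations from the group mean correlated at -0.538, 0.0189 and -0.103 between the libraries that share a number, over 14587 genes. With the replicate block 998 genes were called, DCHS1 was at -0.34 with an adjusted p of 0.025, and FJX1 was at -1.42. Counts of 76 to 235 for FJX1 and 6 to 45 for DCHS2 limit the precision of their values, and FAT1 was too sparse for any comparison.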
